A study of Mus musculus with 6 samples.

Results

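Extracellular inhibitors hold back Wnt signaling before a Wnt ligand can engage its receptors, and 10 genes of this kind were followed in 2 subsets of cancer-associated fibroblasts (CAFs) from mouse colonic adenomas. The members were taken by name from a list of 10 symbols (Wif1, Sfrp1, Sfrp2, Sfrp4, Sfrp5, Frzb, Dkk2, Dkk3, Apcdd1 and Trabd2b), and all 10 were found among the 49548 genes of the deposited table. All 10 also passed the filter of at least 1 normalized count over the 6 libraries, as did 26402 genes in all. A mean of at least 10 normalized counts was reached by 8 of them, and not by Sfrp4 and Sfrp5. The list is usually named for secreted inhibitors, but Apcdd1 and Trabd2b encode proteins that sit in the cell membrane, so the members are called extracellular Wnt inhibitors here.

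Wnt ligands are lipid-modified secreted proteins that bind Frizzled receptors and LRP coreceptors and so stabilize beta-catenin, which then drives transcription together with TCF/LEF factors. In the intestine this signal keeps stem cells and proliferating cells at the base of the crypt, and mesenchymal cells around the crypt release both ligands and inhibitors that shape where it acts. Wif1, the SFRP proteins and Frzb bind Wnt ligands, and the Dickkopf protein Dkk2 binds the LRP coreceptors. Apcdd1 binds ligand and coreceptor at the membrane, and Trabd2b is a metalloprotease that cleaves Wnt ligands.

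All libraries came from C57/BL6 mice with the genotype Col6a1-cre, Rosa26-mTmG, young adults in which colitis-associated tumors were induced with AOM (azoxymethane, a carcinogen) and DSS (dextran sodium sulfate, which injures the colon). In mTmG mice Cre recombination replaces membrane Tomato with GFP, and adenoma cells negative for CD45, EpCAM, CD31 and Ter119 were sorted into GFP+ cells, the Col6a1+ CAFs (3 libraries), and Tomato+ cells, the Col6a1- CAFs (3 libraries). Each library came from a pool of tumors, the study describes the Col6a1-Cre line as active mainly in PDGFRa-high fibroblasts and perivascular cells of the gut, and the Tomato+ gate takes every other cell left by the negative selection. Expression was read by 3′ mRNA sequencing and is given as normalized counts, which are read counts per gene divided by the authors' size factors.

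The sums of normalized counts were 3172312 to 3425249 in Col6a1+ CAFs and 3039152 to 3282417 in Col6a1- CAFs, and 2567653 to 4522548 reads were estimated for the 5 libraries that allow it. Col6a1 itself stood at 1363 ± 544 normalized counts (SD, n = 3) in the GFP+ and 202 ± 111 in the Tomato+ libraries. Col6a1+ replicate 1 stood apart, with 14530 genes detected against 18770 to 20511 in the other libraries, and 46 of the 5750 genes that had at least 50 normalized counts in each other library were at 0 in it (0 genes for each other library), so results that rest on it are also given without it. Pan-fibroblast markers were present in both subsets (sum over 6 genes 39390 to 43877 in Col6a1+ and 8472 to 15422 in Col6a1- CAFs, 3 of 6 called higher in Col6a1+). Among the markers of mural cells, 7 of 7 pericyte genes (41437 to 90948 against 1147 to 2141) and 4 of 6 smooth muscle genes (11840 to 23714 against 453 to 2231) were called higher in Col6a1+ CAFs, as were 4 of 7 markers of PDGFRa-high fibroblasts (2671 to 4371 against 1212 to 1422). Of 7 trophocyte and adventitial fibroblast markers, 2 were called lower in Col6a1+ CAFs (713 to 996 against 1545 to 2038). Epithelial markers, whose cells the EpCAM gate was meant to remove, summed to 5722 to 6365 in Col6a1+ CAFs and 19976 to 33607 in Col6a1- CAFs, with 7 of 10 called lower in Col6a1+ CAFs. Immune markers summed to 49 to 81 against 410 to 836 (2 of 10 called lower, S100a8 and S100a9, with Ms4a1 at 0 in every library), glial markers to 236 to 748 against 48 to 154 (1 of 6 called higher) and erythroid markers to 110 to 1713 against 281 to 482 (0 of 5 tested genes called by limma and 0 at an unadjusted p under 0.05). Of 8 endothelial markers, Esam was called higher in Col6a1+ CAFs and makes up most of the summed markers there (1043 to 1296 against 187 to 372 in Col6a1- CAFs), while the other 7 were not called and had log2 fold changes below 0 (list median -1.59).

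Of the 10 inhibitors, 3 were lower (Wif1, Dkk2 and Apcdd1) and 1 was higher (Trabd2b) in Col6a1+ than in Col6a1- CAFs in the limma model across all genes, called at a Benjamini-Hochberg adjusted p under 0.05. Over all 26402 genes tested, 4.62% were called in either direction, 1.96% lower and 2.66% higher. The same 4 inhibitors were those whose libraries did not overlap between the subsets, 3 lower and 1 higher, where 11.6% of all genes lay wholly lower and 7.91% wholly higher. The other 6 inhibitors overlapped between the subsets and did not pass the test. The log2 fold change (Col6a1+ minus Col6a1-, on the log2 of normalized count plus 1) was below 0 for 7 members and above 0 for 3, with a median of -1.19 against -0.27 over all genes tested. In sorted bulk samples, fewer cells that express a gene and less RNA per cell cannot be told apart, and this holds for every difference below.

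**Figure D1:**
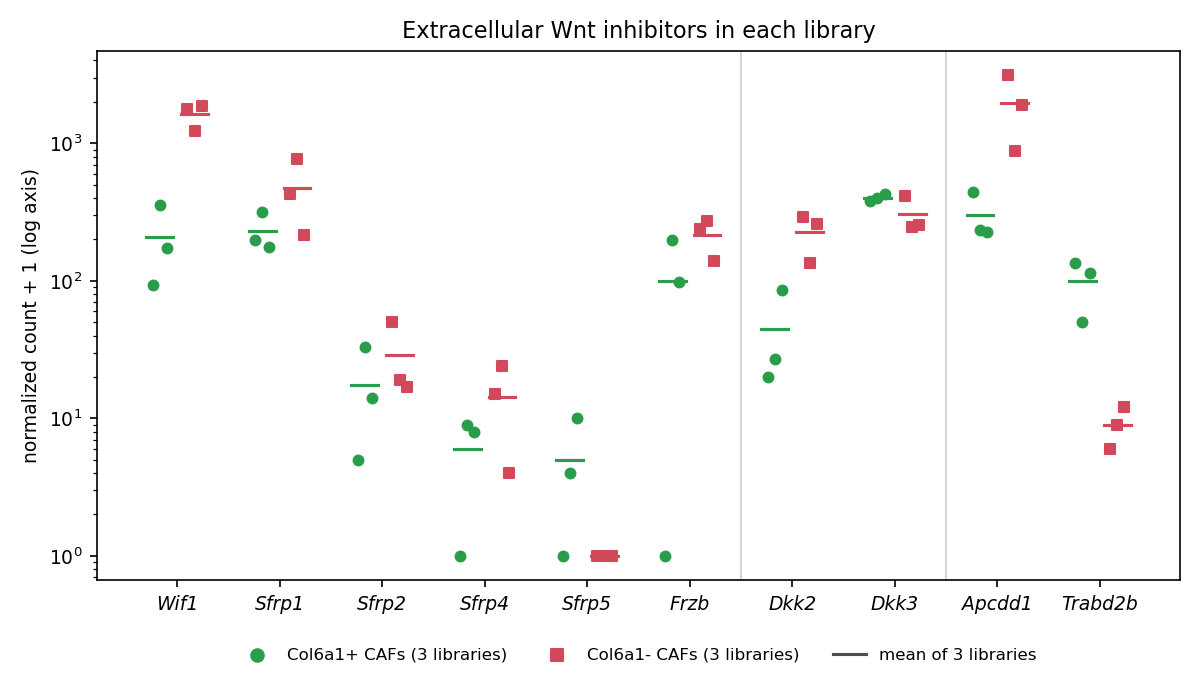
Normalized counts plus 1 (log axis) of the 10 extracellular Wnt inhibitors in the 3 Col6a1+ (green circles) and 3 Col6a1- (red squares) CAF libraries, with a bar at the mean of each 3, grouped from left to right into ligand-binding proteins, Dickkopf proteins and membrane proteins. Wif1, Dkk2 and Apcdd1 lie wholly lower and Trabd2b wholly higher in Col6a1+ CAFs, and the other 6 overlap.

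The replicate numbers may pair the libraries, so each difference was also read within numbers. Correlations were 0.245, 0.125 and 0.144 between same-numbered libraries, and -0.245 to 0.15 between differently numbered ones. Only number 1 stood above that range, so these values do not settle whether the numbers are pairs. With the replicate number as a block, 0.0% of all genes and 0 of the 10 members were called, the smallest adjusted p of any gene being 0.0612, while at an unadjusted p under 0.05 limma gave 1851 genes higher, 2567 lower and 5 of the members. With the block and only genes with a mean of at least 10, 7.26% of 13515 genes were called higher and 6.44% lower, and the same 4 inhibitors were called out of 8 that could be tested. The block thus ended or kept these calls according to the filter on low genes.

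Because Wif1 and Dkk2 moved the same way, the sequence around their starts is shown. RefSeq promoter windows (GRCm38.p6, 250 bases before to 50 after the annotated start) were found for 5 of the 10 members, namely Wif1, Dkk2, Frzb, Sfrp2 and Sfrp5. Capitals mark the letters CTTTG, the core of the motif that TCF/LEF factors recognize, searched on both strands.
Wif1 (chr10:121033754-121034053, plus strand): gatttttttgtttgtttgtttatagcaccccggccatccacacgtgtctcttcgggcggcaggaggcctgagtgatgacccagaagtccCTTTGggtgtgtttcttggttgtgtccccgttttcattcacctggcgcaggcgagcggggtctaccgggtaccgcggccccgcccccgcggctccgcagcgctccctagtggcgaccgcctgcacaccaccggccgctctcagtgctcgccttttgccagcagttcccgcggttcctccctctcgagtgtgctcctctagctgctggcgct
Dkk2 (chr3:132085042-132085341, plus strand): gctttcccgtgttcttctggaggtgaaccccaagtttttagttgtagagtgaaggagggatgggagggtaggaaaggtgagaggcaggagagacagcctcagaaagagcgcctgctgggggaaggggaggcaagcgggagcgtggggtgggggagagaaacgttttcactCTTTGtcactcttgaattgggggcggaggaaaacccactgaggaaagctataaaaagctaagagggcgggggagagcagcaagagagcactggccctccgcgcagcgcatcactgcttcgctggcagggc
The window of Wif1 holds 1 match, starting at position -161 from the annotated start, that of Dkk2 holds 1 at -80, and that of Frzb, whose libraries overlap, holds 1 at -94. No match was found in the windows of Sfrp2 and Sfrp5. Such a short motif was held by 53.9% of 32851 promoter windows of the same length, so a match says nothing particular about these genes.

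Wif1 (ENSMUSG00000020218, mm10 chr10:121033960-121100650, plus strand) encodes Wnt inhibitory factor 1, a secreted protein that captures Wnt ligands through its WIF domain. It had 92, 353 and 172 normalized counts in Col6a1+ replicates 1 to 3, and 1774, 1226 and 1869 in Col6a1- replicates 1 to 3. The subsets did not overlap, with Col6a1- replicate 2 the lowest of its subset and Col6a1+ replicate 2 the highest of its own. The mean was 206 ± 134 (SD, n = 3) in Col6a1+ and 1623 ± 347 in Col6a1- CAFs, 7.89-fold lower in Col6a1+, with a log2 fold change of -3.16 (SE 0.44, 95% interval -4.15 to -2.18, limma adjusted p = 0.00353). The differences within replicate numbers were -4.25, -1.79 and -3.43 on the log2 scale, all in the same direction. The adjusted p was 0.0846 with the block and 0.00393 with the block and a mean of at least 10, within a range of 0.000668 to 0.122 over 15 alternatives. Without Col6a1+ replicate 1 the log2 fold change was -2.69 (limma adjusted p = 0.0283), and leaving out Col6a1- replicate 1, 2 or 3 ended the call at adjusted p of 0.102, 0.0617 and 0.1, respectively.

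The SFRP proteins carry a Frizzled-like domain with which they bind Wnt ligands. Sfrp1 (ENSMUSG00000031548, chr8:23411502-23449632, plus strand) had 197, 313 and 174 normalized counts in Col6a1+ replicates 1 to 3 and 425, 768 and 215 in Col6a1- replicates 1 to 3. Only Col6a1- replicate 3 fell within the Col6a1+ range, and the highest value was that of Col6a1- replicate 2. The means were 228 ± 74.5 and 469 ± 279 (SD, n = 3 each), and the log2 fold change was -0.90 (SE 0.45, 95% interval -1.91 to 0.11, limma adjusted p = 0.374), with -1.11, -1.29 and -0.30 within replicate numbers. The interval still holds a decrease by more than 1 on the log2 scale as well as no difference.

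Sfrp2 (ENSMUSG00000027996, chr3:83766321-83774316, plus strand) was low in most libraries, at 4, 32 and 13 normalized counts in Col6a1+ and 49, 18 and 16 in Col6a1- replicates 1 to 3. The ranges overlapped widely, and both the lowest and the highest value came from the libraries numbered 1. The log2 fold change of -0.94 (SE 0.88, 95% interval -2.88 to 1.01, limma adjusted p = 0.636) shrank to -0.23 without Col6a1+ replicate 1. Sfrp2 is the only member with an overlapping gene in the table, the antisense Gm26771 at chr3:83773853-83774316 (1, 6 and 1 against 0, 8 and 34 normalized counts), and whether the reads were counted by strand is not given in the sources used here.

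Sfrp4 (ENSMUSG00000021319, chr13:19623175-19632821, plus strand) had 0, 8 and 7 normalized counts in Col6a1+ and 14, 23 and 3 in Col6a1- replicates 1 to 3. These few counts overlap, with a log2 fold change of -1.44 (SE 1.19, 95% interval -4.09 to 1.21, limma adjusted p = 0.603) and of -0.41 without Col6a1+ replicate 1. Sfrp5 (ENSMUSG00000018822, chr19:42197971-42202252, minus strand) had 0, 3 and 9 normalized counts in Col6a1+ replicates 1 to 3 and 0 in all 3 Col6a1- libraries, where a count of 0 allows up to 3 counts per library. Set against that floor, its Col6a1+ mean of 4 is at least 1.33-fold higher, and the difference did not pass the test (limma adjusted p = 0.331). Without Col6a1+ replicate 1 it did not pass either (log2 fold change 2.66, limma adjusted p = 0.0778). At this depth neither gene allows a statement about the subsets.

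Frzb (ENSMUSG00000027004, chr2:80411970-80447625, minus strand), also known as a secreted Frizzled-related protein, is the member that Col6a1+ replicate 1 affects most. It had 0, 197 and 97 normalized counts in Col6a1+ and 238, 269 and 138 in Col6a1- replicates 1 to 3. Frzb is among the 46 genes at 0 in Col6a1+ replicate 1 described above, and the cause of these zeros was not tested. Col6a1+ replicate 2 (197) reaches into the Col6a1- range, and Col6a1+ replicate 3 (97) lies below it. The log2 fold change was -2.95 (SE 1.54, 95% interval -6.35 to 0.45, limma adjusted p = 0.392), and without that library it was -0.58 (adjusted p = 0.555). Within replicate numbers the differences were -7.90, -0.45 and -0.50 on the log2 scale, so nearly all of the fitted difference rests on the libraries numbered 1.

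**Figure D2:**
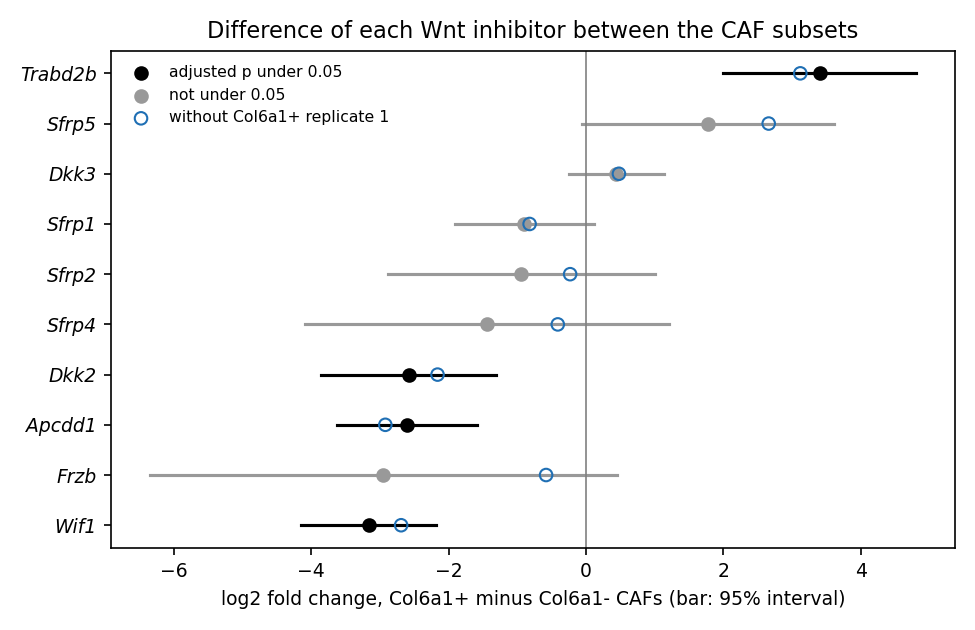
Log2 fold change (Col6a1+ minus Col6a1- CAFs, filled points) of each inhibitor with its 95% interval from limma, black where the adjusted p was under 0.05 and grey otherwise, and the value without Col6a1+ replicate 1 (open circles). Frzb moves from -2.95 to -0.58 without that library, whereas Wif1 and Trabd2b move to -2.69 and 3.12.

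Dkk2 (ENSMUSG00000028031, chr3:132085292-132180304, plus strand) encodes a Dickkopf protein that binds LRP coreceptors and can lower or raise Wnt signaling depending on the partner proteins of the cell. It had 19, 26 and 85 normalized counts in Col6a1+ and 288, 133 and 257 in Col6a1- replicates 1 to 3. The subsets did not overlap, the gap lying between Col6a1+ replicate 3 and Col6a1- replicate 2. The mean was 43.3 ± 36.3 (SD, n = 3) in Col6a1+ and 226 ± 82.0 in Col6a1- CAFs, 5.22-fold lower in Col6a1+, with a log2 fold change of -2.58 (SE 0.58, 95% interval -3.86 to -1.31, limma adjusted p = 0.0309). Within replicate numbers the differences were -3.85, -2.31 and -1.58. Dkk2 had the largest adjusted p of the 4 calls, and it was 0.115 with the block, 0.0134 with the block and a mean of at least 10, and 0.0518 with a pseudocount of 0.1 (range 0.0134 to 0.265 over 15 alternatives). Leaving out any library other than Col6a1+ replicate 3 ended the call, with adjusted p of 0.109 and 0.144 without Col6a1+ replicates 1 and 2 and of 0.206, 0.116 and 0.228 without Col6a1- replicates 1 to 3.

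Dkk3 (ENSMUSG00000030772, chr7:112116017-112159057, minus strand), a divergent Dickkopf member whose effect on Wnt signaling differs between settings, varied little between the libraries. It had 382, 396 and 427 normalized counts in Col6a1+ and 412, 246 and 252 in Col6a1- replicates 1 to 3. Col6a1- replicate 1 lay inside the Col6a1+ range and the other Col6a1- libraries below it. The means were 402 ± 23.0 and 303 ± 94.2 (SD, n = 3 each), with a log2 fold change of 0.44 (SE 0.31, 95% interval -0.24 to 1.13, limma adjusted p = 0.543).

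Apcdd1 (ENSMUSG00000071847, chr18:62922327-62953195, plus strand) encodes a membrane glycoprotein that binds Wnt ligands and LRP coreceptors, and the gene is known as a target of beta-catenin signaling. It had 443, 233 and 224 normalized counts in Col6a1+ and 3143, 871 and 1901 in Col6a1- replicates 1 to 3. Again the Col6a1+ values stayed under those of Col6a1- CAFs, and replicate 1 was the highest in each subset. The mean was 300.0 ± 124 (SD, n = 3) in Col6a1+ and 1972 ± 1138 in Col6a1- CAFs, 6.57-fold lower in Col6a1+, with a log2 fold change of -2.60 (SE 0.46, 95% interval -3.62 to -1.58, limma adjusted p = 0.011) and of -2.82, -1.90 and -3.08 within replicate numbers. The adjusted p was 0.0612 with the block and 0.00213 with the block and a mean of at least 10 (range 0.00181 to 0.196 over 15 alternatives). Without Col6a1+ replicate 1 the log2 fold change was -2.92 (limma adjusted p = 0.0456). The call was lost without Col6a1+ replicate 2 or 3 (adjusted p of 0.0845 and 0.0906) and without Col6a1- replicate 1 or 3 (0.113 and 0.152).

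Trabd2b (ENSMUSG00000070867, chr4:114406724-114615098, plus strand), which encodes the membrane-bound metalloprotease Tiki2, went the opposite way. It had 134, 49 and 112 normalized counts in Col6a1+ and 5, 8 and 11 in Col6a1- replicates 1 to 3. The lowest Col6a1+ library, replicate 2, still lay above every Col6a1- library. The mean was 98.3 ± 44.1 (SD, n = 3) in Col6a1+ and 8 ± 3 in Col6a1- CAFs, 12.3-fold higher in Col6a1+, with a log2 fold change of 3.40 (SE 0.64, 95% interval 1.99 to 4.81, limma adjusted p = 0.0141) and of 4.49, 2.47 and 3.24 within replicate numbers. The adjusted p was 0.0904 with the block and 0.0136 with the block and a mean of at least 10 (range 0.00524 to 0.11 over 14 alternatives). Leaving out any library other than Col6a1+ replicate 2 ended the call, at adjusted p of 0.0502 and 0.11 without Col6a1+ replicates 1 and 3 and of 0.101, 0.088 and 0.0921 without Col6a1- replicates 1 to 3. The direction stayed the same in each of these fits, with log2 fold changes of 3.12 to 3.84.

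The inhibitors that were lower in Col6a1+ CAFs varied alike within the Col6a1- subset, where Wif1, Dkk2 and Apcdd1 were each lowest in replicate 2. Sfrp1, Sfrp4 and Frzb were instead each highest in Col6a1- replicate 2. The summed epithelial markers of the Col6a1- libraries were 19976, 33607 and 24161 in replicates 1 to 3, highest in replicate 2, and Epcam alone was at 3107, 4129 and 3730 against 1074, 884 and 615 in Col6a1+ CAFs. Between the subsets the epithelial sum moved with Wif1, Dkk2 and Apcdd1. Within Col6a1- CAFs its highest library was their lowest. Cdh1 alone made up 10493, 15452 and 11963 of that sum in Col6a1- replicates 1 to 3, so the sum need not follow every kind of epithelial cell. The part of epithelial cells in these differences was not tested. The summed pericyte and smooth muscle markers moved between the subsets with Trabd2b and opposite to Wif1, Dkk2 and Apcdd1, and their part was not tested either. The trophocyte and adventitial markers (713 to 996 against 1545 to 2038) moved in the direction of Wif1, Dkk2 and Apcdd1, with their part likewise not tested.

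**Figure D3:**
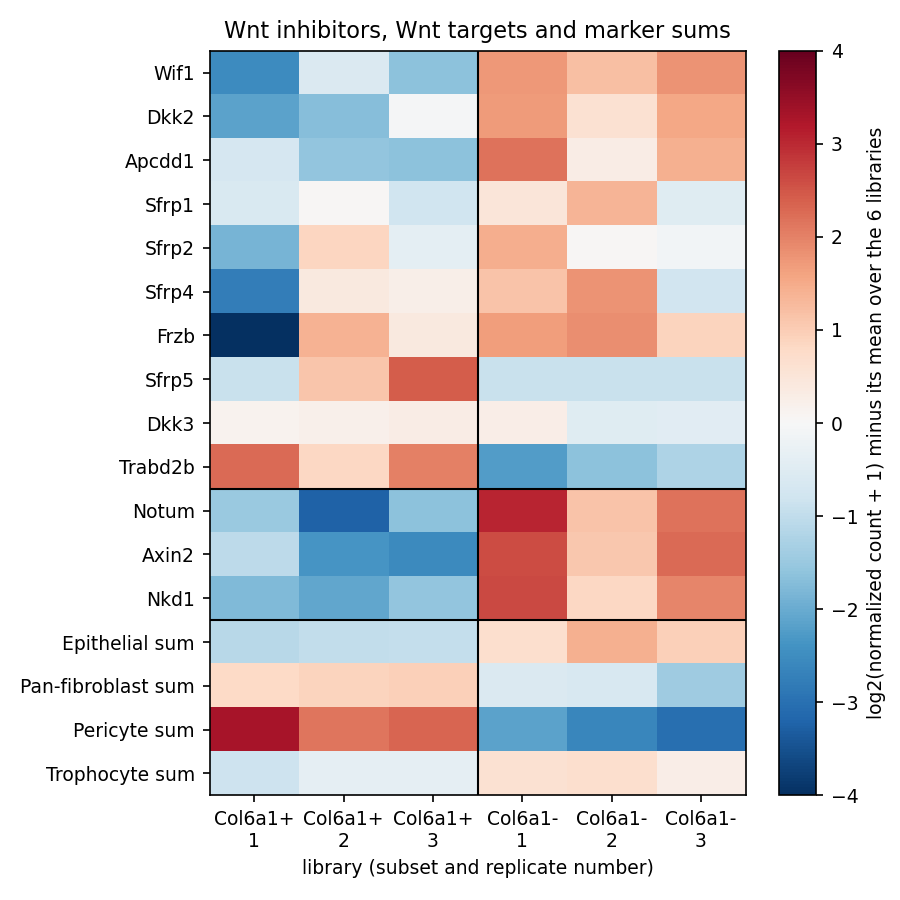
Log2(normalized count + 1) of each inhibitor (top block), of Notum, Axin2 and Nkd1 (middle block) and of 4 summed marker lists (bottom block) in each library, minus its mean over the 6 libraries, with colors from blue (below the mean) to red (above) ending at -4 and 4. In Col6a1- replicate 2, Wif1, Dkk2, Apcdd1, Notum, Axin2 and Nkd1 are at their lowest within the subset. The epithelial sum is at its highest there (33607 normalized counts), and its part in the differences was not tested.

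For each called inhibitor, the 3 genes with the most similar pattern were taken as those with the smallest root mean square difference in centered log2 values over the 6 libraries, among 13514 genes with a mean of at least 10. Next to Wif1 came Plekhs1 (0.17), Map7 (0.24), which encodes a microtubule-associated protein, and Ass1 (0.30), which encodes argininosuccinate synthase. Plekhs1 had 7, 25 and 13 normalized counts in Col6a1+ and 130, 82 and 111 in Col6a1- replicates 1 to 3, and so shares with Wif1 the highest Col6a1+ value in replicate 2 and the lowest Col6a1- value in replicate 2. Next to Dkk2 came Ypel1 (0.22), Nipal2 (0.31) and Als2cl (0.39), and Nipal2 had 21, 21 and 52 against 204, 134 and 166 normalized counts. Next to Apcdd1 came Cep112 (0.30), Celsr1 (0.31), a cadherin of planar cell polarity, and Avil (0.33), and Cep112 had 105, 38 and 35 against 690, 112 and 365 normalized counts. Next to Trabd2b came Cacna2d1 (0.30), a subunit of voltage-gated calcium channels, Armcx4 (0.32) and Adamts9 (0.36), a secreted metalloprotease, and Cacna2d1 had 358, 214 and 298 against 19, 34 and 29 normalized counts. These genes were chosen for likeness over 6 libraries that fall into 2 groups, so part of the likeness is the difference between the subsets that they share.

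The members sat in a pathway of which other parts also differed between the subsets, and counts over lists of its genes are read against the 2.66% higher and 1.96% lower of all genes. Among 13 other extracellular Wnt inhibitors, 12 were tested and 1 was called, Notum, which was lower in Col6a1+ CAFs (list median 0.32 on the log2 scale). Notum, a secreted enzyme that removes the lipid from Wnt ligands, had 63, 18 and 56 normalized counts in Col6a1+ and 1453, 393 and 793 in Col6a1- replicates 1 to 3. It was lowest in replicate 2 of each subset, and its log2 fold change was -4.23 (SE 0.57, limma adjusted p = 0.00279, and 0.0612 with the block, in a range of 0.000564 to 0.121). Adding Notum to the members, the inhibitors called lower in Col6a1+ CAFs bind ligands (Wif1), bind coreceptors (Dkk2), act at the membrane (Apcdd1) or modify the ligand (Notum). Trabd2b, which acts at the membrane and cleaves the ligand, was called higher.

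Of 19 Wnt ligands, 15 were tested, 1 was called higher and 3 lower (list median -0.91). Wnt5a, usually tied to signaling without beta-catenin, was the ligand that went the same way as Trabd2b, at 767 ± 239 against 208 ± 47.5 normalized counts (SD, n = 3 each; log2 fold change 1.86, limma adjusted p = 0.0105). Wnt6 (0, 13 and 15 against 616, 266 and 489 normalized counts; log2 fold change -6.15, limma adjusted p = 0.00546) and Wnt10a (0, 10 and 12 against 335, 127 and 240; -5.38, 0.01) went the same way as Wif1. Wnt7a had at most 1 normalized count in a Col6a1+ library and was at least 8.78-fold lower there (limma adjusted p = 0.0395). Without Col6a1+ replicate 1, where both were at 0, Wnt6 moved to -4.85 and Wnt10a to -4.19 (limma adjusted p = 0.0169 and 0.0204). Like Wif1, Dkk2 and Apcdd1, Wnt6 and Wnt10a were lowest within the Col6a1- subset in replicate 2.

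Of 15 receptors and coreceptors tested, 1 was called higher and 1 lower, with a median of -0.30. Fzd4, a Frizzled receptor, was at 174 ± 70.1 in Col6a1+ and 13.3 ± 2.08 normalized counts in Col6a1- CAFs (log2 fold change 3.54, limma adjusted p = 0.00349), and Fzd10 was lower in Col6a1+ CAFs, with 0, 4 and 3 against 89, 72 and 165 normalized counts (limma adjusted p = 0.00718). In the R-spondin axis, which controls how long Frizzled receptors stay at the surface, 4 of 9 genes were called, all lower (median -1.67). These were the R-spondin receptors Lgr4 (log2 fold change -1.67, limma adjusted p = 0.0365) and Lgr5 (-3.73, 0.0353) and the ubiquitin ligases Rnf43 (-3.99, 0.00232) and Znrf3 (-5.08, 0.0407), which remove Frizzled receptors and so also limit Wnt signaling. Without Col6a1+ replicate 1, where Znrf3 was at 0, Znrf3 moved to -3.41 and lost its call (limma adjusted p = 0.0688). Lgr4 (0.0581) and Lgr5 (0.103) also lost their calls in that fit, and Rnf43 kept its own (0.0204). Of 17 genes of Wnt secretion and the intracellular pathway, 1 was called (median -0.01), namely Ctnnb1, which encodes beta-catenin and was lower (log2 fold change -1.37, limma adjusted p = 0.0209).

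Of 14 genes known as Wnt/beta-catenin targets, 1 was called higher and 6 lower (list median -2.96). The largest decreases were those of Prox1 (log2 fold change -4.95, limma adjusted p = 0.00349) and Ascl2 (at least 9-fold lower, 0.0437), a transcription factor of intestinal stem cells, followed by Sp5 (-3.98, 0.0278), and the increase was that of Cd44 (1.74, 0.00771), a hyaluronan receptor. Axin2 and Nkd1, intracellular feedback inhibitors of the pathway named here after their values were seen, had 73, 29 and 25 against 925, 324 and 733 normalized counts and 214, 173 and 248 against 4567, 1314 and 2842, respectively (log2 fold changes -3.97 and -3.61, limma adjusted p = 0.00232 and 0.00163). As for Apcdd1, the Col6a1- values of Axin2 and Nkd1 were highest in replicate 1 and lowest in replicate 2. With the block none of the listed genes was called. With the block and a mean of at least 10, 4 of 63 listed genes tested were called higher and 16 lower, which are not all the same genes. Over all genes in that fit, 7.26% were called higher and 6.44% lower. Wnt7a and Ascl2 were called in neither blocked fit (limma adjusted p = 0.0557 and 0.052 with the block and a mean of at least 10, in ranges of 0.00212 to 0.164 and 0.00475 to 0.158 over the alternatives). Without Col6a1+ replicate 1 both also lost their calls (limma adjusted p = 0.0644 and 0.0638), while Prox1 moved to -4.01 and kept its own (0.0204). In that fit, 3 of 82 listed genes tested were called higher and 11 lower, and its share over all genes is not given here. Epithelial cells also express many of these receptors and targets, and the epithelial sum was higher in every Col6a1- library (19976 to 33607) than in any Col6a1+ library (5722 to 6365), while its part in the pathway counts was not tested.

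**Figure D4:**
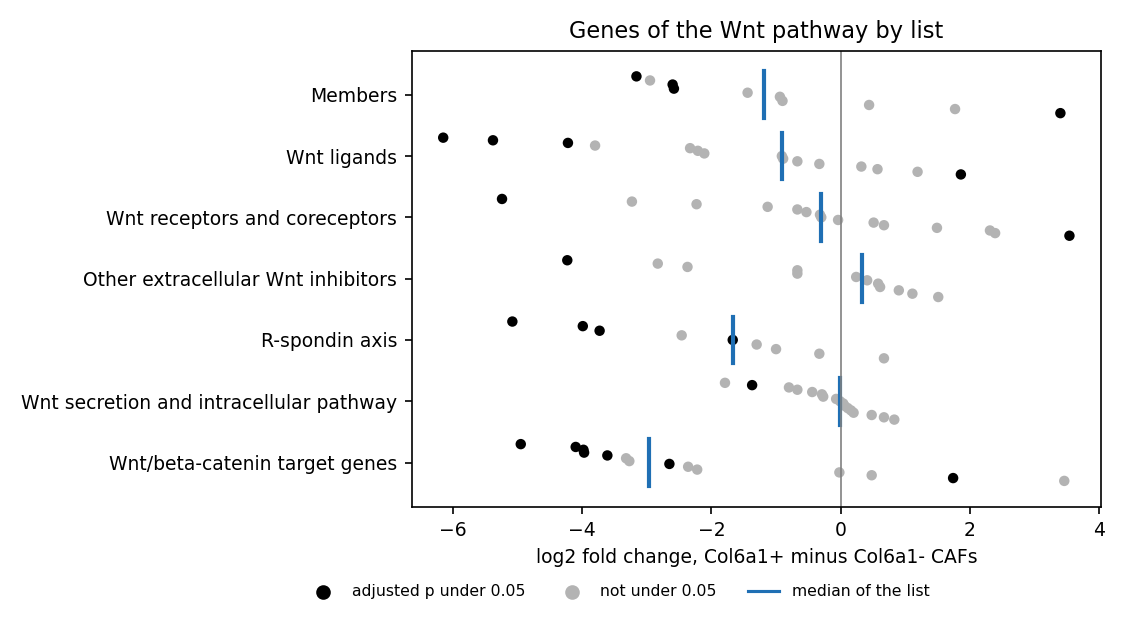
Log2 fold change (Col6a1+ minus Col6a1- CAFs) of each tested gene of the 10 inhibitors and of 6 lists of Wnt pathway genes, black where the limma adjusted p was under 0.05 and grey otherwise, with a blue bar at the median of each list. The medians run from -2.96 for the target genes to 0.32 for the other extracellular inhibitors, with -1.19 for the 10 inhibitors.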

How the data were processed

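The authors sequenced QuantSeq 3′ mRNA libraries on an Ion Proton, mapped reads with TopHat2 and then Bowtie2 to mm10, counted them per gene with GenomicRanges and normalized them with DESeq through metaseqR. The deposited values are the log2 of the normalized count plus 1 and give whole normalized counts in 100.0% of cases (tolerance 1e-06). The authors' own fold changes, p-values, group means and GC content, and 6 further per-sample columns, were not used.

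Groups and replicate numbers came from the labels. In R 4.3.3 with limma 3.58.1, a model of the 2 groups (eBayes with trend; prior degrees of freedom 6.48, residual 4) was fitted to the 26402 genes whose normalized counts summed to at least 1, with Benjamini-Hochberg adjustment over all of them. On simulated counts, the test called 196 of 200 genes changed 8-fold in the right direction, and 4 unchanged genes. The changed genes all had a mean of at least 10, and every gene was given the same dispersion (spread beyond counting noise). The simulation held neither pairs nor zeros like those of Col6a1+ replicate 1, so it does not show how the test does with those. Nor does it show this for low genes or for genes that spread more. Each library is from a pool of tumors, and p-values measure the spread between 3 and 3 libraries. The study gives a total of 3 samples, each a pool, and does not state whether both subsets were sorted from the same pools. The fits without the block treat all libraries as independent. A 0 allows up to 3 counts, and folds against a group at or below that floor in every library are lower bounds. Counts come from 3′ ends and were not compared between genes.

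The replicate numbers were also read as pairs, which the correlations did not settle. Over 13515 genes, the deviations from the group means correlated at 0.245, 0.125 and 0.144 between libraries of the same number. Between libraries of different numbers they correlated at -0.245 to 0.150. The alternatives were scaling by library size, other filters and a pseudocount of 0.1, limma-voom, array quality weights, the replicate block, leaving out each library, and unadjusted p-values with a log2 fold change over 1. The members and all lists (6 of Wnt pathway genes and 10 of cell type markers, given by their counts and sums) were chosen with earlier results of these data known. Named genes are all members, every called gene of a list (for lists with over 6 calls, the 3 largest changes in each direction) and the 3 genes most like each called member. Tables and plots were made with Python 3.11.15, NumPy 2.4.6, pandas 2.3.3 and Matplotlib 3.10.9. Promoter sequences are from RefSeq (GRCm38.p6), and coordinates of genes are those of the deposited table on mm10.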

Additional observations from a re-analysis of the deposited data

How the results depend on the processing

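No direction was reversed for the 10 inhibitors or the named pathway genes under the alternatives run, which does not cover uncalled pathway genes. Filters, the replicate block and the unadjusted criterion leave the log2 fold change itself unchanged (-3.16 for Wif1 in each), so no direction could be reversed there. Only the fits with other scaling, the other pseudocount, limma-voom, array quality weights or fewer libraries could have reversed it. Of the 151 values of single inhibitors, 125 kept their side of the threshold and 26 lost a call. All 26 belong to Wif1, Dkk2, Apcdd1 and Trabd2b, since the 6 uncalled inhibitors had no call to lose. The share kept is therefore lower for the called inhibitors than for all 10. A limma fit with no filter on low values adds 23146 genes at 0 in every library. In it, 0 inhibitors were called higher or lower (1 and 3 in the fit as reported), and 0 pathway genes higher or lower (3 and 16). With the replicate block, which takes same-numbered libraries as pairs, all 4 counts were also 0. The replicate block over genes whose mean reached 10 gave back 1 inhibitor higher and 3 lower. Where each library had to reach 10 normalized counts, 0 inhibitors were called higher, since Trabd2b did not pass that filter, and 8 pathway genes were called lower. A pseudocount of 0.1 gave 9 pathway genes lower, array quality weights gave 5 higher, and the unadjusted criterion gave 7 higher and 28 lower. The share over all genes is not given for these fits or for those that leave out a library. Their counts therefore show only how the calls depend on the settings. Leaving out each library in turn, 0 to 1 inhibitors were called higher and 0 to 2 lower, and 0 to 3 pathway genes higher and 0 to 11 lower. Without Col6a1- replicate 1, and likewise without Col6a1- replicate 3, 0 inhibitors were called in either direction, and without Col6a1+ replicate 2 or Col6a1- replicate 2, 1 was called lower; the cause was not tested beyond the fewer libraries in these fits. Sfrp4 and Sfrp5, with means of 5 and 4 normalized counts in Col6a1+ CAFs, are limited by depth.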
